A study of Rattus norvegicus with 23 samples.

Results

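The comparison set rat brain endothelial cells that went through oxygen-glucose deprivation and reoxygenation (OGD/R, a culture model of ischemic stroke) in the presence of N,N-dimethyltryptamine (DMT) against the same kind of cells kept in normoxia. It asks which part of the response to the injury is present when DMT is given. Samples were chosen by their titles: 5 libraries of OGD/R with DMT and 6 libraries of normoxia, together 11 of the 23 libraries of the series. Below, "DMT" stands for OGD/R with DMT, and libraries carry the number of their title, as in DMT 5. In all groups the cells were primary cultures grown together with pericytes and astrocytes, and 1 library holds the endothelial lysate of 1 insert. The 6 libraries of OGD/R without DMT are given beside them only where they show whether the cells with DMT stood elsewhere than after OGD/R alone. Another 6 libraries, which received DMT and the sigma receptor antagonist BD1063 under OGD/R, entered the estimate of the spread and are not described. No genetic change is named for any group. Rat strain, doses, the length of the deprivation and the time of sampling are not stated in the sources used here. It is also not stated whether the inserts came from separate cell isolations, so p-values measure the spread between these inserts, which may be technical.

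The brain endothelium forms the blood-brain barrier: tight junctions close the space between cells, few vesicles cross them, and carriers and efflux pumps decide which molecules pass. Loss of oxygen and glucose followed by their return is known to open this barrier, to raise adhesion molecules for leukocytes and to engage stress pathways that sense oxygen, nutrients and sterols. DMT is a tryptamine that binds serotonin receptors and sigma receptors.

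Reads were counted per gene, and levels are given as CPM, the count of a gene scaled to the gene reads of its library after correction between libraries. Gene reads numbered 12162759 to 15657802 in the DMT libraries and 15388914 to 18565166 in the normoxia libraries. DMT 5 stood apart from its group. Its gene levels differed from the rest of the DMT group by a median of 0.399 on the log2 scale, against 0.115 to 0.189 for DMT 1 to 4 and 0.0998 to 0.19 for the normoxia libraries. Ribosomal protein genes took 3.63% of its gene reads, against 1.98% to 2.17% in DMT 1 to 4. Mitochondrially coded transcripts took 1.73% of them, against 2.59% to 2.9%. Gene reads made up 62.6% of the read total in DMT 3, 68.1% in DMT 5 and 73.2% to 75.4% in DMT 1, 2 and 4. OGD/R 5 differed from its group in part of the same ways, by a median of 0.255, where OGD/R libraries otherwise held 0.11 to 0.15, with a ribosomal protein share of 3.41% against 2.08% to 2.54%. Counts and medians of gene lists that moved by over 1.5 times without DMT 5 are given with and without it, and the comparison with OGD/R also without both libraries, a choice made after the data were seen.

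The label of endothelial cells was checked against marker genes. The 21 endothelial markers found summed to between 17390 and 18520 CPM in the DMT libraries and between 18570 and 20430 CPM in the normoxia libraries. Astrocyte markers summed to 344.8 to 403.6 CPM with DMT and 385.3 to 438.7 CPM in normoxia, nearly all of it from Glul, Gja1 and Aldoc, which other cell types express too. Gfap and Aqp4 were near 0, and Slc1a2 and Gjb6 were at 0 in all 11. Markers of fibroblasts and meningeal cells summed to 149.8 to 400.5 CPM with DMT and 426.7 to 950.6 CPM in normoxia, nearly all of it from Col1a1, Col3a1 and Fbln1, while Dpt and Slc6a13 were at 0 in all 11. Of the 5 fibroblast markers tested, 3 were lower with DMT and 0 higher, at a median log2 fold change of -1.01. Markers of pericytes and smooth muscle summed to 1326 to 1481 CPM with DMT and 1307 to 1444 CPM in normoxia, nearly all of it from Mcam and Tagln, with Vtn at 0. Of 10 tested, Pdgfrb was lower (-1.01) and Kcnj8 higher (1.09), and the median was -0.30 (-0.19 without DMT 5). Kcnj8 averaged 0.87 CPM with DMT and 0.40 CPM in normoxia, so it rests on few reads. Its call was lost in 5 alternatives, among them leaving out DMT 5. Microglia and leukocyte markers summed to 8.78 to 24.4 CPM with DMT and 5.09 to 9.25 CPM in normoxia, with Cd3e at 0 in all 11. Of 5 tested, 2 were higher (Itgam and Cd68) and 0 lower, the call of Cd68 being lost without any 1 of DMT 1 to 3 or normoxia 1, 3 and 4. Among the few tested markers of other cells, 0 of 2 neuronal, 1 of 2 oligodendrocyte (Cnp, lower), 1 of 4 astrocyte (Glul, lower) and 1 of 1 choroid plexus (Aqp1, lower) genes were called, the calls of Cnp and Glul being lost without DMT 5, at -0.16 each, and without other single libraries. In bulk RNA, fewer cells of a type and less RNA per cell cannot be told apart.

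Cells given OGD/R with DMT differed from normoxic cells in 3284 of 13834 genes tested (23.7%; edgeR's quasi-likelihood test, Benjamini-Hochberg adjusted p under 0.05, two-sided, here and below). Levels were higher with DMT for 1765 genes (12.8%) and lower for 1519 (11%). Most of these changes were small: the median size of a called change was 0.40 on the log2 scale, 62 genes (0.448%) were called and at least 2-fold higher, and 217 (1.57%) called and at least 2-fold lower. Tested with limma on the log2 of the deposited values plus 1, which are scaled to a larger read total, 683 genes were higher and 1420 lower. There 32.5% of the called genes were higher, against 53.7% in the count test, and the median log2 fold change of all genes was -0.05 against 0.02. In the same fit 2608 genes (18.9%) were higher and 2308 (16.7%) lower after OGD/R alone than in normoxia. That comparison shares its normoxia libraries with the one on DMT, so each is given by its own values. The direct test of DMT against OGD/R called 68 genes (0.492%), 45 higher (0.325%) and 23 lower (0.166%) with DMT, at an unadjusted p under 0.05 for 1679 genes. That count depended on single libraries: without DMT 5, 369 genes (2.65%) were higher and 714 (5.12%) lower of 13935 tested. Without both DMT 5 and OGD/R 5, 188 genes (1.35%) were higher and 270 (1.94%) lower of 13921 tested. Against normoxia, leaving out DMT 5 left 1660 genes (11.9%) higher and 1553 (11.1%) lower. In the gene lists described below as having 0 members called against OGD/R, up to 3 were called without DMT 5 and up to 2 without DMT 5 and OGD/R 5, apart from those whose counts are given.

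**Figure D1:**
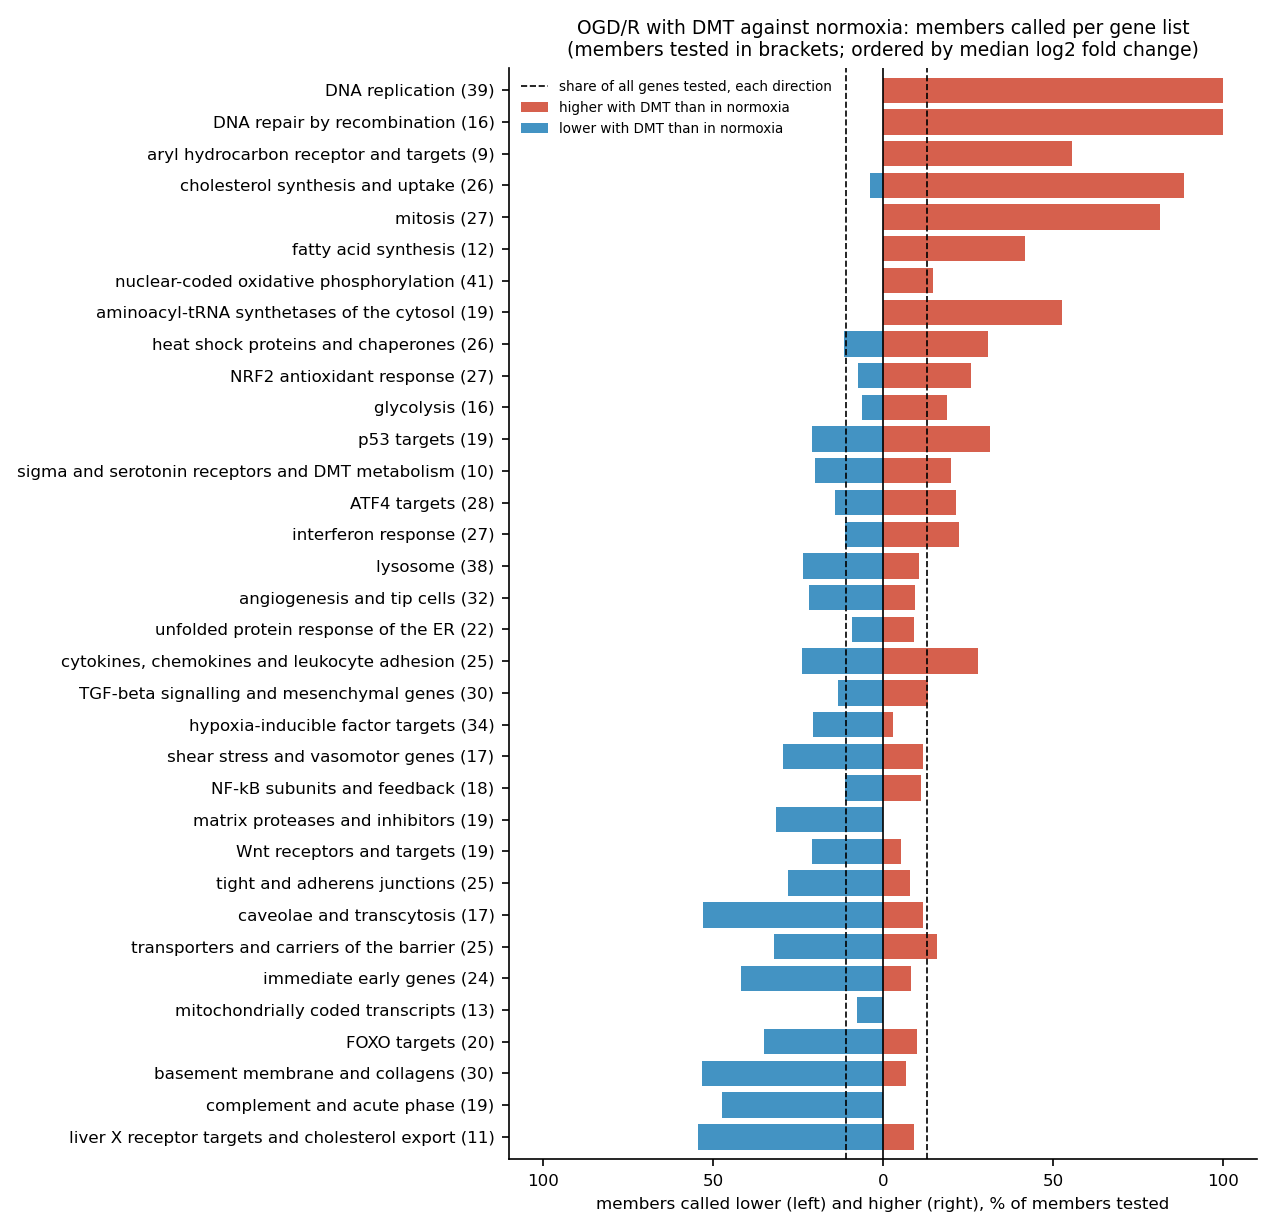
Share of the tested members of each gene list that were called higher (right, red) or lower (left, blue) in OGD/R with DMT against normoxia, with the number of members tested in brackets and the lists ordered by their median log2 fold change. Dashed lines mark the share of all genes called in each direction, 12.8% higher and 11% lower. All members of the DNA replication and recombination repair lists lie on the right, and most called members of the matrix, complement and liver X receptor lists on the left.

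Genes that copy DNA were higher with DMT than in normoxia throughout. Of 39 DNA replication genes tested, 39 were higher and 0 lower (12.8% of all genes were higher), with a median log2 fold change of 0.74. All 16 tested genes of repair by recombination were higher (median 0.68), as were 22 of 27 mitosis genes, with 0 lower (median 0.39). Replication starts when a ring of 6 MCM proteins, the helicase that opens the double strand, is loaded at origins, and its genes are known targets of the E2F transcription factors, which act as cells leave the resting phase.

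Mcm5 had 146, 145, 150.4, 158 and 148 CPM in DMT 1 to DMT 5, against 65.9 to 83.6 CPM (median 73.4) in normoxia. The lowest DMT library lay far above the highest normoxia library, and the log2 fold change was 1.01 ± 0.07 (SE; edgeR adjusted p = 9.52e-10). Mcm3 had 112, 116, 111, 126 and 132 CPM with DMT and 56.4 to 75.6 CPM (median 62.6) in normoxia. Mcm4 had 112, 102, 105, 115 and 107 CPM with DMT and 56.4 to 74.6 CPM (median 62.9) in normoxia. Both were separated from normoxia in every library, by 0.89 ± 0.07 for Mcm3 (edgeR adjusted p = 4.01e-09) and by 0.76 ± 0.06 for Mcm4 (edgeR adjusted p = 2.42e-09). Fen1, the nuclease that trims the RNA primers of the lagging strand, was higher by 1.13 ± 0.09 (edgeR adjusted p = 4.01e-09). Ccne1, the cyclin that drives entry into S phase and was chosen after its values were seen, was higher by 1.15 ± 0.11 (edgeR adjusted p = 4.17e-08). The repair exonuclease gene Exo1 had 13.8, 14.7, 16.3, 17.5 and 12.6 CPM with DMT and 6.81 to 8.98 CPM (median 8.33) in normoxia, higher by 0.87 ± 0.10 (edgeR adjusted p = 1.22e-06). Among mitotic kinases Aurkb was higher by 0.60 ± 0.07 (edgeR adjusted p = 1.22e-06) and Cdk1 by 0.59 ± 0.10 (edgeR adjusted p = 9.57e-05).

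Mcm2, Mcm5, Mcm6 and Mcm7 carry E2F letters in the 250 bases before their start, and these stretches are shown because the genes moved together. The letters searched, on both strands, were TTTCCCGC, TTTCGCGC, TTTGCCGC and TTTGGCGC. They stand in 8 of the 32 replication genes found in the promoter table (25.0%) and in 434 of all 19005 promoters (2.28%), in 1 of 12 repair genes and in 1 of 22 mitosis genes. A match is a description of letters and not a measured site. Sequences are from RefSeq for the build GRCr8, 5′ to 3′ on the strand of the gene, with the matching letters in capitals; in Mcm2, Mcm5 and Mcm6 matches on both strands overlap, and Mcm5 and Mcm7 hold 1 more match each, nearer to the start and not shown. Mcm2, Mcm6 and Mcm7 were chosen after their values were seen.
Mcm2 (chr4:122918095-122918174, minus strand): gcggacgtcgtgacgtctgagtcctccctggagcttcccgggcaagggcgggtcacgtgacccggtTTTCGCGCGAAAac
Mcm5 (chr19:13488570-13488649, plus strand): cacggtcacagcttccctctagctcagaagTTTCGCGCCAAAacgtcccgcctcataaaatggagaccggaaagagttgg
Mcm6 (chr13:42404442-42404521, minus strand): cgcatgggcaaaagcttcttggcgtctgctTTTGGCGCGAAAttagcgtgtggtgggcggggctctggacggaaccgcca
Mcm7 (chr12:22163349-22163428, minus strand): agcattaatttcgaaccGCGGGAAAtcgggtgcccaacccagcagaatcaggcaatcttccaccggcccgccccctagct
These 4 genes rose by 0.72 ± 0.07 (Mcm2), 1.01 ± 0.07 (Mcm5), 0.75 ± 0.07 (Mcm6) and 0.73 ± 0.08 (Mcm7) on the log2 scale. Mcm3, which rose as well, had 0 matches in its window.

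Against OGD/R alone, the replication genes stood slightly lower with DMT. The median log2 fold change of the 39 genes was -0.18 in DMT against OGD/R, where all genes had a median of 0.00039, and 1 was called: Orc1, a subunit of the origin recognition complex chosen after its values were seen, with 15.1, 15.9, 16.3, 15.7 and 12.9 CPM with DMT and 17 to 21.6 CPM (median 20.4) in OGD/R (log2 fold change -0.39 ± 0.09, edgeR adjusted p = 0.0407). The call of Orc1 was lost with the 2 groups fitted alone, where 0 genes at all were called lower with DMT. Without DMT 5, 11 of the 39 were called lower and 0 higher, and without DMT 5 and OGD/R 5, 7 and 0. Mcm5 itself did not pass, at -0.25 ± 0.07 (edgeR adjusted p = 0.135), with 156 to 207 CPM (median 176) in OGD/R. Mean log2 CPM of the list was 5.72 ± 0.09 with DMT (SD, n = 5), 5.92 ± 0.06 in OGD/R (n = 6) and 4.96 ± 0.13 in normoxia (n = 6).

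**Figure D2:**
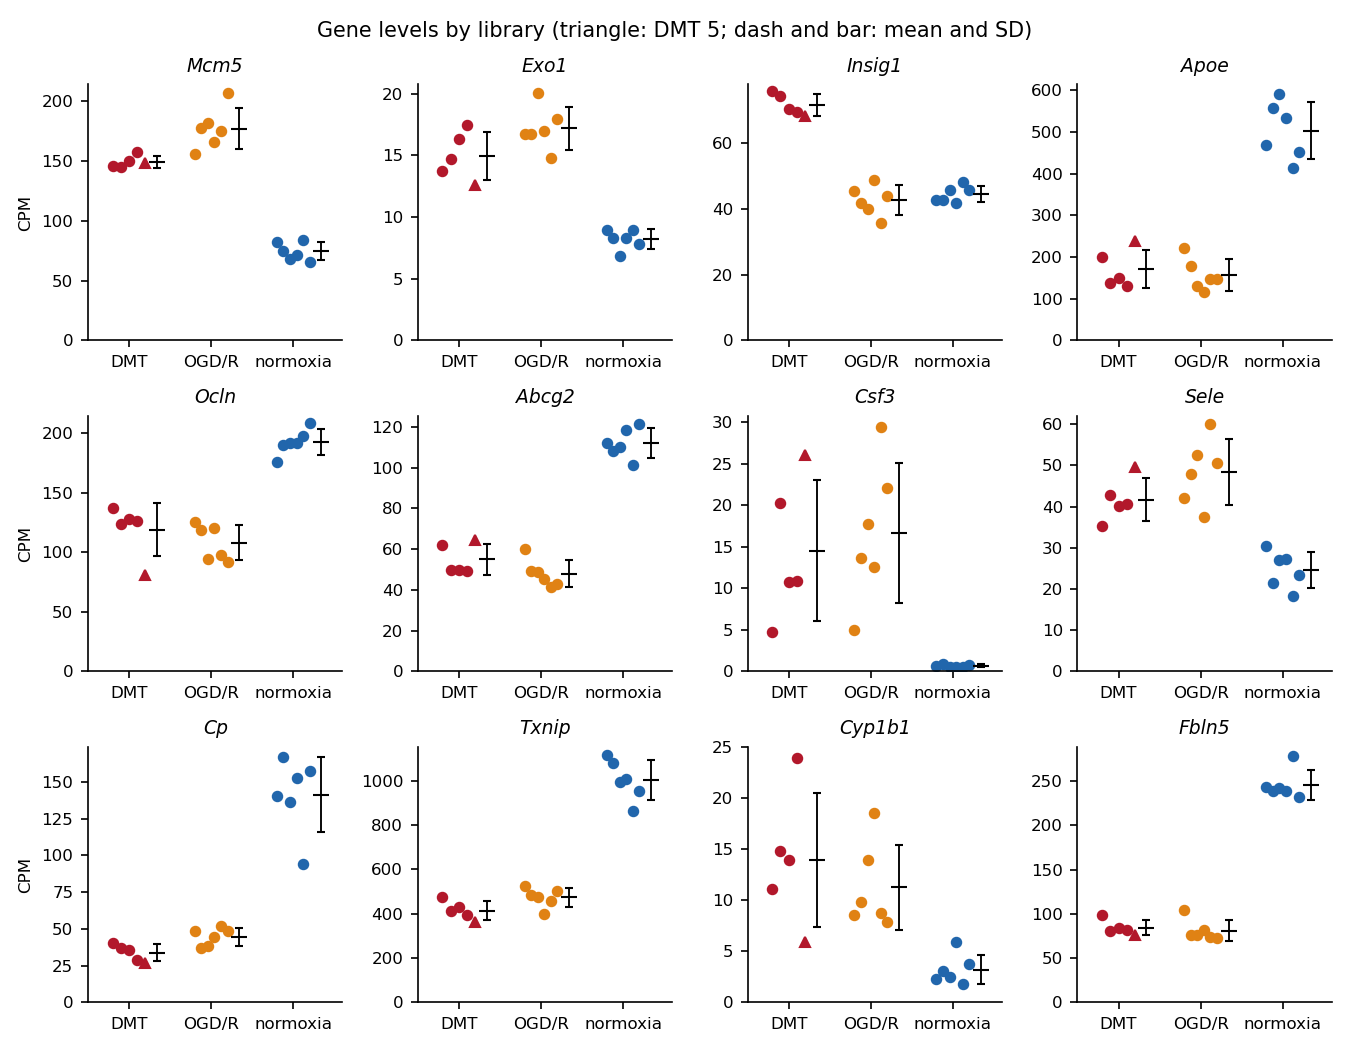
Levels of 12 genes in each library, in CPM on a linear axis from 0, for OGD/R with DMT, OGD/R alone and normoxia; circles are libraries, the triangle is DMT 5, and the dash with its bar is the mean and SD of a group. Mcm5, Exo1, Csf3, Sele and Cyp1b1 lay higher in every DMT library than in every normoxia library, Apoe, Ocln, Abcg2, Cp, Txnip and Fbln5 lay lower, and Insig1 was the gene shown whose DMT libraries also lay above all OGD/R libraries.

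Genes that make and take up cholesterol were higher with DMT, and this group also differed from OGD/R alone. Of 26 genes tested, 23 were higher than in normoxia and 1 (Insig2) lower (12.8% and 11% of all genes), with a median log2 fold change of 0.53. The call of Insig2, a relative of Insig1, was lost without any 1 of DMT 3 and 4 or normoxia 1 to 4, at -0.22 to -0.18. The pathway builds sterols from acetyl-CoA in the endoplasmic reticulum, and the factor SREBP-2 is known to turn on its genes when membrane sterol is low. Insig1, the sterol-regulated retention protein of the SREBP system and itself a target of it, had 75.7, 74.2, 70.3, 69.3 and 68.1 CPM with DMT, against 35.6 to 48.8 CPM (median 42.8) in OGD/R and 41.7 to 48.2 CPM (median 44.2) in normoxia. No DMT library overlapped either group. The log2 fold change was 0.69 ± 0.07 against normoxia (edgeR adjusted p = 6.58e-08) and 0.75 ± 0.07 against OGD/R (edgeR adjusted p = 8.53e-07). OGD/R alone stood at -0.06 against normoxia (edgeR adjusted p = 0.493).

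Hmgcs1, which makes HMG-CoA at the head of the pathway, had 170.4, 156, 162, 161 and 162 CPM with DMT, 109 to 130 CPM (median 117) in OGD/R and 97.5 to 119 CPM (median 105) in normoxia. It was higher with DMT than in normoxia by 0.59 ± 0.06 (edgeR adjusted p = 3.68e-08) and than in OGD/R by 0.46 ± 0.06 (edgeR adjusted p = 6.93e-05). Cyp51, the sterol demethylase, was higher by 0.75 ± 0.06 against normoxia (edgeR adjusted p = 1.17e-08) and by 0.37 ± 0.06 against OGD/R (edgeR adjusted p = 0.00782). Of the 26 genes 6 were higher than after OGD/R and 0 lower (0.325% and 0.166% of all genes). Without DMT 5 the count was 15 and 0, and without DMT 5 and OGD/R 5 it was 11 and 0. With the 2 groups fitted alone, 4 of all genes tested were called higher with DMT than in OGD/R. Limma on the deposited values plus 1 and plus 0.1 called 4 and 5. Not all of the 6 calls were thus kept in these fits. The letters TCACNCCAC, a form of the sterol element, were searched on both strands of the same 250 bases and stand in 0 of the 19 cholesterol genes found in the promoter table, against 174 of all 19005 promoters (0.916%). With so rare a form and 19 genes, the count of 0 cannot tell whether these genes carry sterol elements. Mean log2 CPM of the list was 5.79 ± 0.05 with DMT (SD, n = 5), 5.52 ± 0.05 in OGD/R (n = 6) and 5.32 ± 0.07 in normoxia (n = 6).

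Fatty acid synthesis genes were higher in 5 of 12, with 0 lower (median 0.28). Fasn, the fatty acid synthase, had 175, 165, 149.6, 171 and 117 CPM with DMT and 85.3 to 105 CPM (median 93.4) in normoxia (log2 fold change 0.73 ± 0.12, edgeR adjusted p = 6.93e-05). Every DMT library was above every normoxia library, DMT 5 least. Acly, which supplies cytosolic acetyl-CoA, was higher by 0.36 ± 0.06 (edgeR adjusted p = 0.000188) and the desaturase Fads1 by 0.60 ± 0.10 (edgeR adjusted p = 0.000163).

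Cholesterol export moved the other way. Of 11 tested targets of the liver X receptor, the factor that senses oxidised sterols and turns on export, 6 were lower with DMT than in normoxia and 1 (Srebf1) higher, at a median of -0.45. Apoe, the apolipoprotein that carries cholesterol in brain, had 200.2, 139, 149, 130.1 and 239 CPM with DMT and 415 to 590.4 CPM (median 502) in normoxia. The groups were far apart, at a log2 fold change of -1.55 ± 0.17 (edgeR adjusted p = 4.32e-07). Pltp, the phospholipid transfer protein, had 13.1, 10.6, 11.5, 12.2 and 14.5 CPM with DMT and 44.3 to 65 CPM (median 49.4) in normoxia, lower by -2.08 ± 0.12 (edgeR adjusted p = 1.99e-11). The exporter Abcg1 fell by 0.71 ± 0.09 on the log2 scale, while Abca1 did not pass, at -0.26 ± 0.14 (edgeR adjusted p = 0.202). Abca1 did pass in 2 alternatives, among them leaving out normoxia 5, at -0.36. The call of Srebf1, chosen after its values were seen, at 0.20 ± 0.07 (edgeR adjusted p = 0.0433), was lost without any 1 of DMT 1 to 4 or normoxia 1, 2, 3 and 6, at 0.15 to 0.21. Against OGD/R 0 of the 11 were called in either direction; Apoe stood at 0.13 ± 0.17 and Pltp at -0.21 ± 0.12.

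Several genes of the barrier itself were lower with DMT than in normoxia. Of 25 junction genes tested, 7 were lower and 2 higher, with a median of -0.11 (-0.18 without DMT 5). Ocln, the tight junction protein occludin, had 137, 124, 128, 126 and 80.6 CPM with DMT and 175 to 208 CPM (median 192) in normoxia. All DMT libraries were lower, DMT 5 most, and the log2 fold change was -0.69 ± 0.10 (edgeR adjusted p = 2.25e-05). Jam2, a junctional adhesion molecule, was lower by -0.66 ± 0.09 (edgeR adjusted p = 4.38e-06), and Jup, the plakoglobin that anchors cadherins, by -0.42 ± 0.06 (edgeR adjusted p = 7.81e-06). The claudin that dominates at the blood-brain barrier, Cldn5, had 1582, 1630.3, 1646, 1575 and 2902 CPM with DMT and 1724 to 2078 CPM (median 1951) in normoxia. DMT 1 to 4 lay below all normoxia libraries and DMT 5 above them, so the fold change of -0.05 ± 0.15 did not pass (edgeR adjusted p = 0.844). It stood at -0.27 without DMT 5, where it did not pass either. The change in Cldn5 did pass in 3 alternatives. These were leaving out DMT 5 and OGD/R 5, leaving out both with normoxia 5, and limma voom with sample weights. Tjp1, the scaffold ZO-1, stood at -0.32 ± 0.13 (edgeR adjusted p = 0.0903) and passed in 4 alternatives. These were leaving out DMT 1, at -0.40, leaving out normoxia 5, at -0.38, leaving out DMT 5, OGD/R 5 and normoxia 5, and limma voom with sample weights. Cdh5, the endothelial cadherin, stood at -0.03 ± 0.08 (edgeR adjusted p = 0.841). Against OGD/R 0 of the 25 were called, with Ocln at 0.14 ± 0.10 (edgeR adjusted p = 0.651).

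Carriers were lower in 8 of 25 and higher in 4 (median -0.15, and -0.06 without DMT 5), the higher share being near that of all genes (12.8%). Abcg2, an efflux pump of the luminal membrane, had 61.9, 49.8, 49.6, 49.1 and 64.5 CPM with DMT and 101 to 122 CPM (median 111) in normoxia, lower by -1.03 ± 0.09 (edgeR adjusted p = 1.55e-08). The organic anion carriers fell together: Slco1a4 by 1.72 ± 0.18, Slco1c1, the thyroxine carrier, by 1.28 ± 0.18 and Slco2b1 by 0.94 ± 0.11 on the log2 scale. Slco1a4 has close relatives, and how shared reads were divided is not stated. Slc2a1, the glucose carrier GLUT1, had 360.2, 377, 354, 365 and 417 CPM with DMT and 413 to 463 CPM (median 445) in normoxia, with an overlap through DMT 5 (log2 fold change -0.23 ± 0.05, edgeR adjusted p = 0.00248). Genes of caveolae and transcytosis, the vesicle routes across the cell, were lower in 9 of 17 and higher in 2 (median -0.15). Here too the higher share was near that of all genes. Fcgrt, the receptor that returns antibodies and albumin, was lower by -0.80 ± 0.08 (edgeR adjusted p = 1.52e-07), Cav2, a caveolin, by -0.70 ± 0.09 (edgeR adjusted p = 2.17e-06) and Scarb1, the HDL receptor, by -0.54 ± 0.05 (edgeR adjusted p = 4.62e-08). In neither list was a member called against OGD/R, while 2 carriers and 1 gene of caveolae were higher without DMT 5 and 1 of each without DMT 5 and OGD/R 5. Abcg2 stood at 0.20 ± 0.09 there, with 41.4 to 60 CPM (median 47) in OGD/R.

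Endothelial identity genes were partly lower. Of the 21 endothelial markers 6 were lower and 1, Kdr, higher (median -0.09). Egfl7, a secreted endothelial protein, had 1570.3, 1659, 1810.3, 1709 and 2326 CPM with DMT and 2638 to 3369 CPM (median 2841) in normoxia, lower in every DMT library (-0.69 ± 0.09, edgeR adjusted p = 5.75e-06). Kdr, the main VEGF receptor, had 398, 406, 368, 370.2 and 351 CPM with DMT and 243 to 325 CPM (median 293) in normoxia, higher by 0.37 ± 0.08 (edgeR adjusted p = 0.00188). In the angiogenesis list 7 of 32 were lower and 3 higher, against 11% and 12.8% of all genes, with a median of -0.02. Without DMT 5 the count was 8 lower and 6 higher, and the median 0.02. Vegfa, a ligand of Kdr, fell by 0.56 ± 0.10 on the log2 scale, with 31.6, 35, 33.7, 33.7 and 25 CPM with DMT and 42.9 to 52.4 CPM (median 45.9) in normoxia. Pdgfb, which recruits pericytes, fell by 0.33 ± 0.07. Against OGD/R 1 of the 32 was higher and 0 lower (3 and 1 without DMT 5).

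Genes of the extracellular matrix were lower with DMT. Of 30 basement membrane and collagen genes 16 were lower and 2 (Col15a1 and Fn1) higher, with a median of -0.27; without DMT 5 the count was 10 lower and 3 higher. The call of Fn1 was lost without any 1 of DMT 1 to 4 or normoxia 1 to 5, at 0.42 to 0.55. Fbln5, a fibulin of elastic fibres, had 98.8, 80.4, 84.6, 81.5 and 76.6 CPM with DMT and 232 to 279 CPM (median 240.5) in normoxia. The groups did not come near each other (log2 fold change -1.54 ± 0.09, edgeR adjusted p = 5e-11). Sparc, a collagen chaperone of basement membranes, had 5863, 5781, 5917, 5561 and 5661 CPM with DMT and 7351 to 7976 CPM (median 7577) in normoxia, lower by -0.41 ± 0.04 (edgeR adjusted p = 3.99e-07). Eln, elastin, was lower by -2.25 ± 0.29 at low levels, 0.27 to 1.51 CPM with DMT and 3.49 to 6.32 CPM in normoxia (edgeR adjusted p = 3.88e-06).

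The fibrillar collagen gene Col3a1 had 87.4, 144, 143, 103 and 47.1 CPM with DMT and 182 to 439 CPM (median 287) in normoxia (-1.44 ± 0.35, edgeR adjusted p = 0.00411). Col1a1 overlapped between the groups, with 118, 235, 206, 135 and 85.4 CPM with DMT and 196 to 464 CPM (median 295) in normoxia (-1.01 ± 0.35, edgeR adjusted p = 0.0418), and its call was lost without any 1 of DMT 1, 4 and 5 or normoxia 1 to 4, at -1.04 to -0.85. Both are also fibroblast markers, whose sum was 149.8 to 400.5 CPM with DMT and 426.7 to 950.6 CPM in normoxia; the part of such cells in these results was not tested. Matrix proteases and their inhibitors were lower in 6 of 19, with 0 higher (median -0.09); without DMT 5, 4 of 20 were lower and 1 higher, with a median of -0.05. Mmp2, the gelatinase that cuts type IV collagen, had 123, 121, 121, 131 and 104 CPM with DMT and 186 to 217 CPM (median 205) in normoxia (-0.77 ± 0.06, edgeR adjusted p = 7.11e-09), and its inhibitor Timp3 was lower by -0.92 ± 0.15 (edgeR adjusted p = 4.55e-05). In the list of TGF-beta signalling and mesenchymal genes 4 of 30 were higher and 4 lower, near the share of all genes (12.8% and 11%; 2 higher without DMT 5; median -0.06, and -0.03 without DMT 5), with Bmp4 higher by 0.39 ± 0.08 and the related ligand Bmp2 lower by -0.77 ± 0.10. Without DMT 5 or without normoxia 6, 2 of the 30 were higher. Against OGD/R 0 genes of these 3 lists were called.

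**Figure D3:**
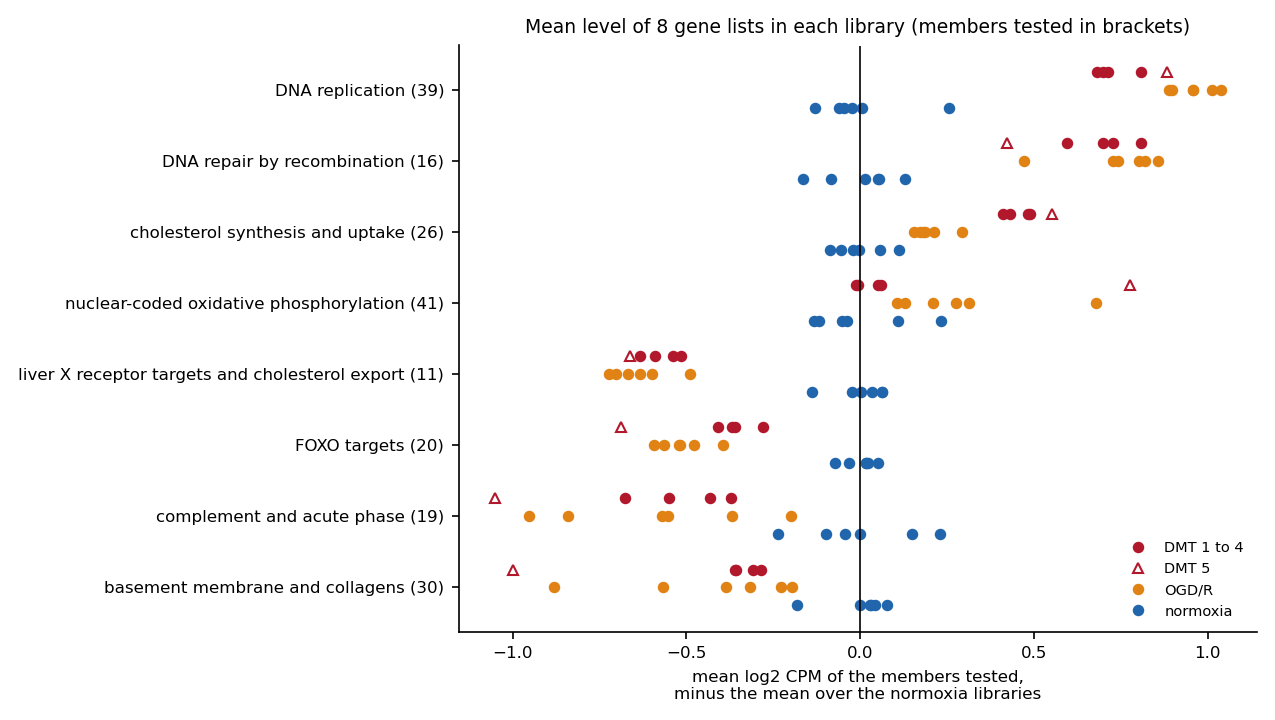
Mean log2 CPM of the tested members of 8 lists in each library, as the difference from the mean over the 6 normoxia libraries, with OGD/R with DMT above OGD/R alone and normoxia in each row; the open triangle is DMT 5. DMT 1 to 4 lie close together and apart from normoxia for replication, repair, cholesterol synthesis, liver X receptor, FOXO and matrix genes, while for oxidative phosphorylation DMT 5 stands far to the right of DMT 1 to 4, as does OGD/R 5 of OGD/R 1 to 4 and 6.

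The inflammatory genes were mixed. Of 25 cytokine, chemokine and leukocyte adhesion genes tested, 7 were higher with DMT than in normoxia and 6 lower (median -0.04). Csf3, the growth factor of neutrophils (G-CSF), had the largest rise among named genes: 4.71, 20.3, 10.8, 10.8 and 26 CPM with DMT and 0.522 to 0.938 CPM (median 0.618) in normoxia. Its DMT values spread over a wide range, and all of them were above normoxia (log2 fold change 4.40 ± 0.54, edgeR adjusted p = 1.74e-06). Sele, E-selectin, on which leukocytes roll, had 35.2, 42.8, 40.1, 40.6 and 49.6 CPM with DMT and 18.3 to 30.4 CPM (median 25.2) in normoxia, higher by 0.76 ± 0.13 (edgeR adjusted p = 0.000134). Selp, P-selectin, was higher by 0.91 ± 0.19 (edgeR adjusted p = 0.00112), with 25.6, 45.8, 28.5, 26.6 and 39.5 CPM with DMT and 11.4 to 21.3 CPM (median 18.3) in normoxia.

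Vcam1 and Icam1, adhesion molecules that hold leukocytes firmly, were lower. Vcam1 had 5.98, 7.3, 6.57, 6.04 and 3.91 CPM with DMT and 8.45 to 11.5 CPM (median 8.82) in normoxia, lower by -0.66 ± 0.19 (edgeR adjusted p = 0.0147), a call that was lost without DMT 3 and DMT 5 at -0.54. Icam1 was lower by -0.29 ± 0.10 (edgeR adjusted p = 0.0392), and its call was lost without any 1 of DMT 1, 3, 4 and 5 or normoxia 1 to 4, at -0.30 to -0.25. Il33, an alarmin stored in the nucleus, had 948, 804, 824, 750.1 and 789.7 CPM with DMT and 1017 to 1074 CPM (median 1047) in normoxia (-0.35 ± 0.07, edgeR adjusted p = 0.000749). Il6 and Ccl2 did not pass, at 0.48 ± 0.43 and -0.06 ± 0.16. Against OGD/R 0 of the 25 were called; Csf3 stood at -0.20 ± 0.39, Sele at -0.22 ± 0.13 and Selp at -0.38 ± 0.19, with 4.99 to 29.4, 37.5 to 60 and 28.8 to 54.5 CPM in OGD/R.

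NF-kB genes were called in both directions, 2 of 18 higher and 2 lower, near the share of all genes (12.8% and 11%; median -0.08, and -0.05 without DMT 5). Nfkbia, the inhibitor that NF-kB induces as feedback, fell by 0.41 ± 0.07 on the log2 scale, and Nfkbiz, a nuclear cofactor, was higher by 0.49 ± 0.07. The list of interferon response genes had 6 of 27 higher and 3 lower, the lower share being near that of all genes (12.8% higher and 11% lower). Without DMT 4 or without normoxia 3, 1 was lower. The median was 0.04, and -0.01 without DMT 5, with Irf9 at 0.35 ± 0.07 and Ifit2 at -0.25 ± 0.05. Against OGD/R 1 of the 27 was higher and 1 lower. Without DMT 5, 2 of 28 were higher and 1 lower, and without DMT 5 and OGD/R 5, 1 and 1.

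Complement and acute phase genes were lower in 9 of 19, with 0 higher (median -0.44); without DMT 5 the count was the same and the median -0.22. Lbp, which hands bacterial lipopolysaccharide to CD14, had 2.24, 2.09, 0.811, 1.57 and 0.892 CPM with DMT and 15.9 to 23.6 CPM (median 19.4) in normoxia, lower by -3.68 ± 0.28 (edgeR adjusted p = 1.52e-09). Cp, the ferroxidase ceruloplasmin, had 40.2, 37.3, 35.5, 29.1 and 26.6 CPM with DMT and 94.5 to 167 CPM (median 146) in normoxia, lower by -2.07 ± 0.16 (edgeR adjusted p = 2.42e-09). For both the DMT and normoxia libraries were far apart. C4a was lower by -2.43 ± 0.23 (edgeR adjusted p = 4.39e-08) and C4b by -2.43 ± 0.26 (edgeR adjusted p = 2.4e-07); these are near-identical copies, and how their reads were divided is not stated. Fibroblast markers moved with this group, with the sums given above, and their part in it was not tested. After OGD/R alone Lbp was at 1.43 to 4.67 CPM and Cp at 36.8 to 51.9 CPM, and 0 of the 19 genes were called between DMT and OGD/R.

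Genes known to rise under hypoxia were called lower more often than higher. Of 34 targets of the hypoxia-inducible factor, 7 were lower and 1 higher (median -0.06; 11% of all genes were lower). Without DMT 5, 9 were lower and 1 higher, with a median of -0.02. The glycolytic kinase Pgk1, the higher gene with all libraries, was not called without DMT 5, at 0.22, nor with the 2 groups fitted alone, at 0.38, nor with limma on the deposited values, at 0.29. Ddit4, which restrains mTORC1 under stress, had 56.2, 54.4, 58.5, 58.8 and 63.5 CPM with DMT and 127 to 159 CPM (median 149) in normoxia (-1.32 ± 0.13, edgeR adjusted p = 6.58e-08). Ndrg1, a stress-induced gene, had 247, 235, 227, 219 and 257 CPM with DMT, 171 to 198 CPM (median 178) in OGD/R and 282 to 339.7 CPM (median 324) in normoxia. It lay between the other 2 groups, with no overlap with either: -0.43 ± 0.06 against normoxia (edgeR adjusted p = 1.11e-05) and 0.39 ± 0.06 against OGD/R (edgeR adjusted p = 0.00223). It was 1 of 2 genes of the list called against OGD/R, both higher with DMT. Without DMT 5, 4 were higher and 0 lower, and without DMT 5 and OGD/R 5, 3 and 0.

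FOXO targets, which answer to insulin and nutrient signals, were lower in 7 of 20 and higher in 2 (median -0.25). Without DMT 5 these counts were the same and the median -0.15. The higher share was near that of all genes (12.8%). Txnip, the glucose-induced inhibitor of glucose uptake and of thioredoxin, had 474, 412, 431, 393 and 362 CPM with DMT and 865 to 1117 CPM (median 999.6) in normoxia, lower in every DMT library (-1.27 ± 0.08, edgeR adjusted p = 9.91e-11). Depp1 was lower by -2.51 ± 0.18 (edgeR adjusted p = 9.54e-10), Pik3ip1, an inhibitor of PI3 kinase, by -1.45 ± 0.17 (edgeR adjusted p = 8.56e-07) and Pdk4, which blocks pyruvate entry into the citrate cycle, by -1.34 ± 0.19 (edgeR adjusted p = 1.2e-05). None of these 4 was called against OGD/R, where Txnip stood at -0.19 ± 0.08 and Depp1 at -0.03 ± 0.19. Of the 20 targets 2 others were higher with DMT than in OGD/R and 0 lower (0.325% and 0.166% of all genes). Without DMT 5 the count was 3 higher and 0 lower, and without DMT 5 and OGD/R 5 it was 2 and 0.

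Glycolysis genes were higher in 3 of 16 and lower in 1, 25% in all against 23.7% of all genes (5 higher without normoxia 5; median 0.12, and 0.06 without DMT 5), led by Pkm, pyruvate kinase, with 669, 699.7, 717, 726 and 1064 CPM with DMT and 519.5 to 627 CPM (median 553) in normoxia (0.47 ± 0.09, edgeR adjusted p = 0.000379). Of 41 nuclear-coded subunits of oxidative phosphorylation 6 were higher and 0 lower (14.6%, against 12.8% of all genes higher), at a median of 0.19, which rested on 1 library: without DMT 5, 3 were higher and the median was -0.0048. Mean log2 CPM of that list was 7.32 in DMT 5, 6.53 to 6.61 in DMT 1 to 4 and 6.55 ± 0.14 in normoxia (SD, n = 6). OGD/R 5 stood apart in the same way, at 7.22, while the remaining OGD/R libraries held 6.65 to 6.86. Between DMT and OGD/R 0 of the 41 were called. Without DMT 5, 12 were lower, and without both DMT 5 and OGD/R 5, 4 were lower. Of 13 mitochondrially coded transcripts 1, Mt-atp8, was lower and 0 higher (median -0.19, and -0.10 without DMT 5). Without DMT 5, OGD/R 5 and normoxia 5, 0 were lower and 1 higher, with a median of 0.009. Mean log2 CPM of these transcripts was 10.07 in normoxia 5 and 9.353 to 9.641 in the other normoxia libraries.

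Immediate early genes, which answer within minutes to growth factors and flow, were lower in 10 of 24 and higher in 2 (1 without DMT 2 or without DMT 5; median -0.16). Fos had 2.32, 3.11, 2.35, 1.64 and 1.37 CPM with DMT and 4.55 to 29.9 CPM (median 6.36) in normoxia, all DMT libraries being lower (-2.21 ± 0.41, edgeR adjusted p = 0.000282). Normoxia 5 held the highest value. Btg2, a brake on proliferation that p53 and growth factors induce, had 403, 379.5, 410.5, 379 and 358 CPM with DMT and 549 to 650.5 CPM (median 636) in normoxia (-0.68 ± 0.06, edgeR adjusted p = 1.48e-08). Ier3 was higher by 0.69 ± 0.08 (edgeR adjusted p = 5.39e-07). Shear stress and vasomotor genes were lower in 5 of 17 and higher in 2 (median -0.07, and -0.01 without DMT 5), the higher share being near that of all genes (12.8%). The flow-induced factors Klf2 and Klf4 fell by 0.63 ± 0.14 and 0.96 ± 0.17 on the log2 scale, and Ednrb, an endothelin receptor, by 0.98 ± 0.18.

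Genes of xenobiotic and oxidative stress sensing were partly higher. Of 9 aryl hydrocarbon receptor genes 5 were higher and 0 lower (median 0.62). Cyp1b1, a cytochrome P450 that this receptor induces, had 11.1, 14.8, 13.9, 23.9 and 5.9 CPM with DMT and 1.83 to 5.86 CPM (median 2.79) in normoxia, so that DMT 5 stood just above the highest normoxia library (2.12 ± 0.30, edgeR adjusted p = 1.42e-05). Cyp1a1 had 111, 120.4, 104, 122 and 164 CPM with DMT and 39.4 to 69.6 CPM (median 64.3) in normoxia (1.03 ± 0.14, edgeR adjusted p = 7.47e-06). Tiparp, which feeds back on the receptor, was higher by 0.96 ± 0.14 (edgeR adjusted p = 2.32e-05). Both cytochromes were high after OGD/R alone too, at 7.87 to 18.5 and 126 to 192 CPM, and 0 of the 9 genes were called between DMT and OGD/R. In the NRF2 list 7 of 27 were higher and 2 lower (median 0.12), with the quinone reductase Nqo1 at 0.62 ± 0.08 (edgeR adjusted p = 1.98e-06).

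Among ATF4 targets, the genes of amino acid stress, 6 of 28 were higher and 4 lower (median 0.04, and 0.0067 without DMT 5). The lower share was near that of all genes (12.8% higher and 11% lower), and 2 were lower without DMT 1. Gdf15, a secreted stress cytokine, stood apart from both other groups. It had 20.8, 23.5, 24, 31.5 and 25.7 CPM with DMT, 8.81 to 17.8 CPM (median 12.6) in OGD/R and 10 to 14.8 CPM (median 11) in normoxia. The log2 fold change was 1.14 ± 0.15 against normoxia (edgeR adjusted p = 3.8e-06) and 1.01 ± 0.15 against OGD/R (edgeR adjusted p = 0.00137), where OGD/R alone stood at 0.13 against normoxia (edgeR adjusted p = 0.505). It was the 1 ATF4 target called against OGD/R with all libraries. Without DMT 5, 2 of the 28 were higher and 2 lower, and without DMT 5 and OGD/R 5, 2 and 1. Mthfd1l, a folate enzyme, was higher than in normoxia by 0.55 ± 0.07 and Psat1, of serine synthesis, by 0.50 ± 0.10. Of the 19 cytosolic aminoacyl-tRNA synthetases, which charge tRNAs, 10 were higher and 0 lower (median 0.15), led by Vars1 at 0.39 ± 0.07. Against OGD/R 0 of these synthetases were called, while 7 were lower and 0 higher without DMT 5, and 1 was lower without DMT 5 and OGD/R 5.

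Protein folding genes were called in both directions. Heat shock genes and chaperones were higher in 8 of 26 and lower in 3 (median 0.14). Their lower share was near that of all genes (12.8% higher and 11% lower). The mitochondrial chaperone Hspd1 stood at 0.45 ± 0.07 (edgeR adjusted p = 3.87e-05) and the small heat shock protein Hspb8 at -0.72 ± 0.10 (edgeR adjusted p = 5.52e-06). In the comparison with OGD/R 0 of the 26 were called; 9 were lower without DMT 5 and 7 without DMT 5 and OGD/R 5, with 0 higher in both. Of 22 genes of the unfolded protein response 2 were higher and 2 lower (median -0.02), a share near or below that of all genes, and leaving out single libraries gave 0 to 2 higher and 1 to 4 lower, with 4 lower without DMT 5. p53 genes were called in both directions, 6 of 19 higher and 4 lower (median 0.07), with Ccng1, a cyclin of this list, at 0.41 ± 0.08. Wnt genes were lower in 4 of 19 and higher in 1 (median -0.11), with the target Apcdd1 at -0.57 ± 0.09.

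Lysosomal genes were called in both directions, 9 of 38 lower and 4 higher, against 11% and 12.8% of all genes. The higher share was thus near that of all genes. Their median was 0.01, and 0.0076 without DMT 5. Ctsd, the protease cathepsin D, had 502, 514, 517, 499.8 and 629 CPM with DMT and 705 to 827 CPM (median 778) in normoxia (-0.53 ± 0.07, edgeR adjusted p = 5.56e-06). Gpnmb, a glycoprotein induced under lysosomal stress, had 37.5, 24.1, 24.9, 25.6 and 16.5 CPM with DMT, 9.75 to 18.4 CPM (median 16.1) in OGD/R and 5.5 to 10.1 CPM (median 7.3) in normoxia. It was higher than in normoxia by 1.75 ± 0.19 (edgeR adjusted p = 3.07e-07) and than in OGD/R by 0.81 ± 0.18 (edgeR adjusted p = 0.0407), with DMT 5 inside the OGD/R range. Flcn, folliculin, which acts at the lysosome on nutrient sensing, was higher than normoxia by 0.32 ± 0.07 (edgeR adjusted p = 0.00148) and than OGD/R by 0.61 ± 0.07 (edgeR adjusted p = 5.02e-05), with 29.8, 27.2, 31.8, 27.7 and 32.4 CPM with DMT, 17.8 to 21.1 CPM in OGD/R and 20.8 to 26.1 CPM in normoxia. In all, 4 of the 38 were higher with DMT than in OGD/R and 0 lower.

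**Figure D4:**
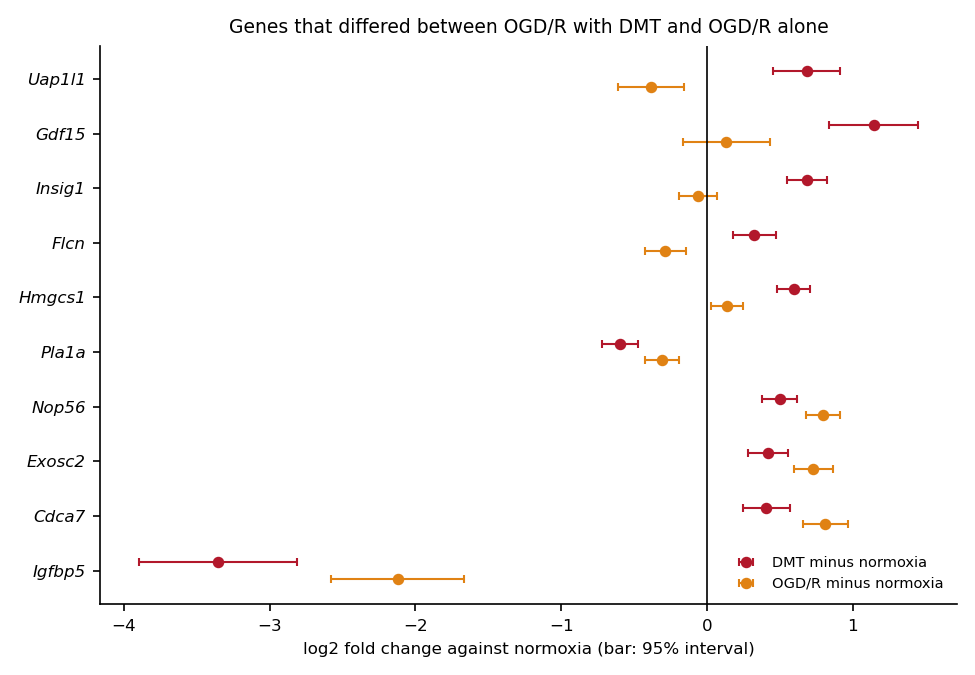
Log2 fold changes against normoxia of the 10 genes named for their difference between the groups, for OGD/R with DMT (red, upper point) and OGD/R alone (orange, lower point), with 95% intervals. Uap1l1, Gdf15, Insig1, Flcn and Hmgcs1 lie further right with DMT, and Pla1a, Nop56, Exosc2, Cdca7 and Igfbp5 further left.

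The remaining genes with a difference between DMT and OGD/R fell on both sides. Uap1l1, a relative of the enzyme that makes UDP-N-acetylglucosamine, had 12.6, 10.8, 11.3, 11.1 and 12.8 CPM with DMT, 4.79 to 7.09 CPM (median 5.08) in OGD/R and 6.25 to 8.54 CPM (median 7.26) in normoxia. It was higher with DMT than in OGD/R by 1.07 ± 0.11 (edgeR adjusted p = 1.26e-05) and than in normoxia by 0.68 ± 0.11 (edgeR adjusted p = 6.49e-05). Nop56, a core protein of the snoRNA machines that modify ribosomal RNA, was between the other groups: 115, 119, 115, 120.2 and 128 CPM with DMT, 132 to 169 CPM (median 144) in OGD/R and 78.8 to 94.9 CPM (median 83.1) in normoxia. It was lower than in OGD/R by -0.29 ± 0.06 (edgeR adjusted p = 0.0227) and higher than in normoxia by 0.50 ± 0.06 (edgeR adjusted p = 9.2e-07). Cdca7, a chromatin factor of dividing cells, and Exosc2, a subunit of the RNA exosome, lay between the groups in the same way, at -0.40 ± 0.08 and -0.31 ± 0.07 against OGD/R (edgeR adjusted p = 0.0172 and 0.0364). Igfbp5, which binds insulin-like growth factors, was further from normoxia with DMT: 2.99, 4.19, 3.08, 2.52 and 6.17 CPM with DMT, 4.66 to 15.9 CPM (median 8.16) in OGD/R and 26.9 to 47.1 CPM (median 38.8) in normoxia. The log2 fold change was -3.35 ± 0.26 against normoxia (edgeR adjusted p = 2.42e-09) and -1.23 ± 0.27 against OGD/R (edgeR adjusted p = 0.0364). Pla1a, a phospholipase, stood at -0.59 ± 0.06 and -0.28 ± 0.06 in the same order. With the 2 groups fitted alone, or with limma on the deposited values, 0 genes were called lower with DMT than in OGD/R. The lower calls of Nop56, Cdca7, Exosc2, Igfbp5 and Pla1a were thus lost there. Genes called higher numbered 4 with the groups fitted alone, and 4 and 5 with limma. The higher calls of Insig1, Hmgcs1, Cyp51, Gdf15, Uap1l1, Flcn, Gpnmb and Ndrg1 were thus not all kept there.

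Among the largest falls, the secreted proteins C1qtnf9 and Msmp had 8.38, 7.3, 7.38, 8.24 and 9.81 CPM and 17.2, 16.7, 19.8, 17.1 and 25 CPM with DMT. In normoxia they had 50.6 to 71.9 CPM and 96.9 to 141 CPM. C1qtnf9 was lower by -2.94 ± 0.12 (edgeR adjusted p = 7.97e-14) and Msmp by -2.65 ± 0.16 (edgeR adjusted p = 5e-11), with the groups wide apart. Zbtb16, a transcription factor known to respond to glucocorticoids, was lower by -3.25 ± 0.28 (edgeR adjusted p = 1.17e-08), at 0.412 to 1.51 CPM with DMT and 6.92 to 13.2 CPM in normoxia. Among the largest rises Cyp26b1, which breaks down retinoic acid, had 188, 193, 165, 159 and 151 CPM with DMT and 57.5 to 81 CPM (median 66.8) in normoxia (1.32 ± 0.09, edgeR adjusted p = 2.39e-10). Itgax, an integrin subunit best known from dendritic cells and macrophages, had 38.6, 41, 39.4, 37.2 and 41 CPM with DMT and 14.1 to 18.3 CPM (median 14.9) in normoxia (1.36 ± 0.09, edgeR adjusted p = 9.91e-11). Microglia and leukocyte markers summed to 8.78 to 24.4 CPM with DMT and 5.09 to 9.25 CPM in normoxia, and their part in this rise was not tested. Mab21l3, Myh4 and Nat8l were higher by 1.87 ± 0.21, 1.56 ± 0.12 and 1.27 ± 0.15. After OGD/R alone, log2 fold changes against normoxia were -2.88 for C1qtnf9, -4.01 for Zbtb16, 1.68 for Itgax and 1.35 for Cyp26b1, and none of the 8 genes in this paragraph was called between DMT and OGD/R.

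The genes that DMT is known to meet were measured too. Of 10 tested genes of sigma and serotonin receptors and of DMT metabolism, 2 were higher than in normoxia and 2 lower (median 0.04, and 0.08 without DMT 5, where 3 were higher). Tmem97, the sigma-2 receptor, which also binds sterols, was higher by 0.64 ± 0.08 (edgeR adjusted p = 2.73e-06). Htr2a, the serotonin receptor through which psychedelics act, was at 0.755 to 1.64 CPM with DMT and 1.87 to 3.13 CPM in normoxia, lower by -1.13 ± 0.23 (edgeR adjusted p = 0.000798). Maoa, which degrades DMT, stood at -0.09 ± 0.06 (edgeR adjusted p = 0.268) and passed in 2 alternatives. Inmt, the methyltransferase that can make DMT, had 0.299, 0.203, 0.486, 1.01 and 0.206 CPM with DMT and 0.913 to 19.8 CPM (median 3.63) in normoxia; its normoxia values were scattered and overlapped DMT 4 (-4.14 ± 0.89, edgeR adjusted p = 0.00133). None of the 10 was called between DMT and OGD/R; without DMT 5, 2 were higher and 1 lower, and without DMT 5 and OGD/R 5, 0 were called.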

How the data were processed

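The authors deposited whole-number read counts per gene for 32883 gene identifiers. Per the labels' protocols, column-purified RNA was enriched for poly-A transcripts, and directional libraries primed at random were amplified and read from one end. Tools listed, without their roles, in the submitters' processing notes are STAR 2.7.10a, RSEM 1.3.3, cutadapt 3.4, FastQC 0.11.9 and DESeq2 1.38, with the build Rnor_6.0. Whether strand was used in counting, and how shared reads were assigned, is not stated. A second table, deposited by the authors under the name TPM, holds CPM: every value came out as a whole number of reads within 0.01 of a read, each count divided by 1 constant per library, and the recovered reads gave the same 1765 and 1519 calls.

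Library names in the labels tied each column to 1 sample, with 0 columns left over. Counts were scaled by TMM and filtered by filterByExpr (minimum 10). All 23 libraries entered 1 fit with a mean per group and edgeR 4.0.16's quasi-likelihood test (R 4.3.3). P-values were adjusted by Benjamini-Hochberg over all 13834 genes, with a threshold of 0.05, and the procedure was tested on simulated counts. Printed levels are CPM computed from these counts, and log2 fold changes are the fitted ones. Alternatives were DESeq2 1.42.0, limma 3.58.1, other scalings and filters, a fold of 1.5, a replicate block and leaving libraries out.

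The comparison and the 42 gene lists were chosen with earlier results of these data known. Named genes are the 8 largest rises and falls among called protein-coding genes averaging at least 4 CPM, the 4 members of each list with the smallest p, a fixed set of barrier, inflammation and sterol genes, and the 5 genes in each direction with the smallest p against OGD/R among those called against normoxia. Members that complete a small count (such as Fn1, Col15a1, Insig2, Pgk1 and Mt-atp8), and the marker genes, were named after their values were seen. Some genes that this rule names are not reported here.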

Additional observations from a re-analysis of the deposited data

Results flagged for a closer look

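In 30 of 250 groups of values checked, 1 library lay far from the others of its group. The criterion was Dixon's 95% critical value, by which chance gives about 1 such case in 20 groups; cases in 1 library are not independent. DMT 5 held 15 of them and normoxia 5 held 9.

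DMT 5 was high for Cldn5 at 2900 CPM (other DMT libraries 1580 to 1650), Pgk1 at 1530 CPM (945 to 978), Pkm at 1060 CPM (669 to 726), Ctsd at 629 CPM (500 to 517), Hspd1 at 239 CPM (181 to 193), Nfkbia at 167 CPM (129 to 139), Mcm7 at 157 CPM (117 to 127) and Fcgrt at 80.8 CPM (59.4 to 62.1). It was low for Cdh5 at 1570 CPM (2100 to 2270), Cav2 at 435 CPM (549 to 593), Tjp1 at 266 CPM (462 to 542), Acly at 244 CPM (293 to 304), Ocln at 80.6 CPM (124 to 137), Timp3 at 47.8 CPM (92.9 to 105) and Pdgfrb at 2.4 CPM (5.35 to 6.08). In the other DMT libraries, Pla1a was low in DMT 1 at 38.3 CPM and Ccl2 high in DMT 2 at 28.3 CPM.

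Normoxia 5 was high for Fbln5 at 279 CPM (other normoxia libraries 232 to 243), Mcm2 at 80.9 CPM (60.8 to 68), Aurkb at 60.1 CPM (44.5 to 49.4), Psat1 at 44.9 CPM (27.7 to 32.3), Fos at 29.9 CPM (4.55 to 7.93) and Gdf15 at 14.8 CPM (10 to 11.3). It was low for Col15a1 at 224 CPM (292 to 330), Cyp1a1 at 39.4 CPM (59.5 to 69.6) and Pdk4 at 17 CPM (25.6 to 29.3). Nfkbiz was high at 96.5 CPM and Htr2a low at 1.87 CPM in normoxia 6, Itgax was high in normoxia 1 at 18.3 CPM, and Aqp1 was high in normoxia 3 at 4.99 CPM.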

How the results depend on the processing

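Of 118 named genes called between DMT and normoxia, 103 kept their call and direction under every alternative except the test against a fold of 1.5, and 0 reversed. Alternatives in which a gene was not tested were left out for that gene. Many of these genes were named for a small p or a large change in this same comparison, so they do not stand for all called genes. The count of 1765 genes higher with DMT than in normoxia became 40 in that test, 1168 with the groups fitted alone, and 683 and 673 with limma on the deposited values plus 1 and plus 0.1. The count of 1519 lower became 133 against a fold of 1.5 and 2361 with limma voom and sample weights. Leaving out 1 library gave 1339 to 1814 higher and 1266 to 1681 lower.

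Between DMT and OGD/R, 45 genes were higher. DESeq2's Wald test gave 148, voom 278, no filter on low counts 29, the fold of 1.5 0, the groups fitted alone 4, limma on deposited values 4 and 5, and leaving out DMT 3 and DMT 5 together 86. Leaving out DMT 5 and OGD/R 5 gave 188 higher and 270 lower, and leaving out normoxia 5 as well gave 376 and 544; both were chosen after seeing the data. For the 23 lower genes DESeq2, voom, no filter, the fold of 1.5, the groups alone, limma on deposited values, and leaving out DMT 3 and DMT 5 gave 116, 451, 8, 0, 0, 0 and 0, and 147, and scaling by library totals alone gave 15. Leaving out 1 library gave 19 (without DMT 3) to 369 (without DMT 5) higher and 4 (without DMT 1) to 714 (without DMT 5) lower. In OGD/R against normoxia, the 2608 higher genes became 113 against a fold of 1.5 and 1289 and 1270 with limma on deposited values, and the 2308 lower genes became 172; leaving out 1 library gave 2106 to 2664 and 1951 to 2586. The cause of these shifts was not tested.

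Replicate numbers were not taken to pair the samples, since not every pair deviated together: same-numbered DMT and normoxia libraries had correlations of -0.124 to 0.449 over 5 pairs, and 2 libraries correlated best with their own number. The libraries numbered 5 deviated alike, at 0.449 for DMT with normoxia and 0.58 for DMT with OGD/R. A replicate block gave 1821 genes higher and 1579 lower against normoxia, and 29 higher and 8 lower against OGD/R.

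Where a list held at most 2 called members in a direction, leaving out 1 library moved that count to between 0 and 4. Calls of Irf9 and Flcn were lost with limma on deposited values. Genes at a few CPM or less, such as Eln, Zbtb16, Inmt and Htr2a, rest on few reads per library.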
